A study of Mus musculus with 12 samples.

Results

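The Schlafen genes (symbol Slfn) were examined across mouse myeloid progenitors and the neutrophils made from them. The 8 members Slfn1, Slfn2, Slfn3, Slfn4, Slfn5, Slfn8, Slfn9 and Slfn14 were taken as the array rows annotated to that symbol alone, out of 30743 genes with a row of their own. Where a symbol had several rows the member would have been chosen by its mean signal over all arrays, but each had exactly 1 row. Their mean log2 signals over the 12 arrays, given as a description only, ran between 3.94 for Slfn14 and 10.22 for Slfn3. The cells were HoxB8-ER cells on a C57BL/6 background, that is, bone marrow cells transduced with HOXB8 joined to the hormone-binding part of the estrogen receptor, which divide as promyelocyte-like cells in 0.5 µM estradiol and become neutrophils within 6 days once it is withdrawn. There were 2 arrays in each of 6 groups: Ezh2-/- neutrophils, wild-type neutrophils, Ezh2-/- undifferentiated cells, wild-type undifferentiated cells, wild-type neutrophils with GSK343, and wild-type neutrophils with vehicle. GSK343 inhibits the enzyme that Ezh2 encodes. It was given for 9 days at 0.5 µM by the sample labels but at 1 µM by the series text, so the dose is unsettled. All groups carry the HOXB8-ER transgene, and the 2 genotypes came from littermates. No label states how many lines were derived per genotype or whether the 2 arrays of a group were separate cultures, so genotype and cell line cannot be told apart, and the p-values measure array-to-array spread that may be purely technical.

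Schlafen proteins form a mammalian family that differs in size between rodents and primates. In mice, the short proteins of group I (Slfn1 and Slfn2) consist of little more than the Schlafen core, those of group II (Slfn3 and Slfn4) are longer, and those of group III (Slfn5, Slfn8, Slfn9 and Slfn14) add a helicase-like part at the C-terminus. Several members cleave or bind transfer RNA and thereby act on protein synthesis, and many are induced by type I interferon. In blood cells the family is known for T cell quiescence and for changes during myeloid differentiation and macrophage activation. EZH2 is the catalytic subunit of Polycomb repressive complex 2, which places a repressive methyl mark on histones.

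The values were log2 signals per transcript cluster, the array's unit for a gene. They were read within the 8 genotype arrays and within the 4 drug arrays, because array medians lay between 4.54 and 4.65 in the genotype set and between 3.88 and 3.96 in the drug set. Each array's background limit, between 4.83 and 5.79, was set at the 95th percentile of its 23 antigenomic controls. Differences were tested with limma over all 65956 clusters and called at a Benjamini-Hochberg adjusted p under 0.05; every adjusted p below is from that fit. The targeted gene was checked first. Ezh2 had 8.74 and 9.02 in Ezh2-/- neutrophils, against 8.31 and 8.34 in wild-type neutrophils (difference 0.55, adjusted p = 0.0501). In undifferentiated cells it had 9.10 and 9.44 in Ezh2-/- cells, against 11.57 and 11.65 in wild type (difference -2.34, adjusted p = 5.5e-05). Because Ezh2 was not lower in the first pair, those cells are called neutrophils labelled Ezh2-null, and any direction given for them depends on that label. From undifferentiated cells to neutrophils Ezh2 changed by -3.28 in wild type (adjusted p = 1.23e-06) and by -0.39 in the Ezh2-/- line (adjusted p = 0.113). Wild-type neutrophils had thus already lost much of the transcript, which limits this check of the label. GSK343 need not lower the transcript, and Ezh2 had 9.33 and 9.28 with GSK343, against 8.78 and 9.02 with vehicle (adjusted p = 0.736). Of 10 neutrophil markers, such as Ltf and Camp, 10 were above the limit in each of the 4 neutrophil groups.

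All 8 members lie in a single cluster on mouse chromosome 11 (GRCm38.p6, RefSeq), between position 82951349, where Slfn5 starts, and position 83286726, where Slfn14 ends. RefSeq promoter windows, from 250 bases before to 50 bases after a gene's start, were found for all 8. A window belongs to the start of a transcript, which need not be the outer end of the gene: that of Slfn5 lies inside the annotated span given above. They were searched on both strands for GAAA, any 2 bases and GAAA, the core of the interferon-stimulated response element, and for TTCNNNGAA, the gamma-activated site. The first was in the windows of Slfn5, Slfn8 and Slfn9, against 3.44% of all 32851 windows. The second was in none of the 8, against 8.3% of all windows. The windows of Slfn8 and Slfn9 were 80.8% identical when aligned. They are shown here because both hold the same 10-letter match, while only Slfn8 was called in the comparisons below, and beside them stand Slfn5, which has a match at another place, and Slfn1 and Slfn4, whose differences by genotype were larger but whose windows held no match. Capitals mark a match, written 5′ to 3′ on the gene's strand, so that the reverse complement (TTTC, any 2 bases, TTTC) appears in Slfn8 and Slfn9.
Slfn8, chr11:83020761-83021060, minus strand: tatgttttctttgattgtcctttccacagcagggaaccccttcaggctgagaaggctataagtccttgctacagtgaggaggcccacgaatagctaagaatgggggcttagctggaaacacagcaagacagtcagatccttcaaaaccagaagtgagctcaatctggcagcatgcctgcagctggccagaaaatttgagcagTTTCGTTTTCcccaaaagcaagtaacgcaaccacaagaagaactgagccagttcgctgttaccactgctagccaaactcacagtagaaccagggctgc
Slfn9, chr11:82991781-82992080, minus strand: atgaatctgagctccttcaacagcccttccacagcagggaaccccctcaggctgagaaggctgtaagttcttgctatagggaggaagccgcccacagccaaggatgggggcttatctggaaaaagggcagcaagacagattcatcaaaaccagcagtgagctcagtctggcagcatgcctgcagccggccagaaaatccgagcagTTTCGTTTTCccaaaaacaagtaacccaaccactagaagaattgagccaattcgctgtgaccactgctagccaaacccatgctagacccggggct
Slfn5, chr11:82951852-82952151, plus strand: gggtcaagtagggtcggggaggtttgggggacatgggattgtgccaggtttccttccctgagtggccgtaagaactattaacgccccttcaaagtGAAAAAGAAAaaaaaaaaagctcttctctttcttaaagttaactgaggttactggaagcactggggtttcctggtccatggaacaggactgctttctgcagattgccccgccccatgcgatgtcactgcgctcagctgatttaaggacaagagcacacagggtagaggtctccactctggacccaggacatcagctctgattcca
Slfn1, chr11:83116570-83116869, plus strand: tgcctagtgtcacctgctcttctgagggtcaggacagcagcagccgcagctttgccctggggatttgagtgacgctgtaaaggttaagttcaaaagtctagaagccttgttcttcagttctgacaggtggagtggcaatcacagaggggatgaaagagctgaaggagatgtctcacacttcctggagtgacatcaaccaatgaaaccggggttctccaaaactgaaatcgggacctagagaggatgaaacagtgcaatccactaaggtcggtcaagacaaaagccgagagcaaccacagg
Slfn4, chr11:83174936-83175235, plus strand: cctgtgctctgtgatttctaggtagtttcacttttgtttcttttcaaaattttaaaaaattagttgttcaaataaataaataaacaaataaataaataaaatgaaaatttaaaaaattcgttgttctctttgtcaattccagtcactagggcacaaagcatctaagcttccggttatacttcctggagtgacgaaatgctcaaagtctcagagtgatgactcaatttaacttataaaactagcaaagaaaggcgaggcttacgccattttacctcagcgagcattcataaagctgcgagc
A match is only a description of letters, and a window without one says nothing about the factor. Slfn8 has a further RefSeq start, whose window holds the same match. The match begins 48 bases before the start in the Slfn8 window shown, 45 bases before it in Slfn9 and 155 bases before it in Slfn5.

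In neutrophils labelled Ezh2-null, 5 of the 8 members rose relative to wild-type neutrophils and none fell, where 11.8% of all clusters were called, 6.75% higher and 5.06% lower. Many clusters were under background, and of the 25790 above the limit in at least 1 group, which hold 7 of the 8 members, 30.4% were called. These were Slfn1, Slfn3, Slfn4, Slfn5 and Slfn8, so all 3 groups of the family were represented, while Slfn2, Slfn9 and Slfn14 did not pass the test. The median difference of the 8 members was 2.19 log2 units, against -0.03 over all clusters. The plot of signals by array shows these values.

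**Figure D1:**
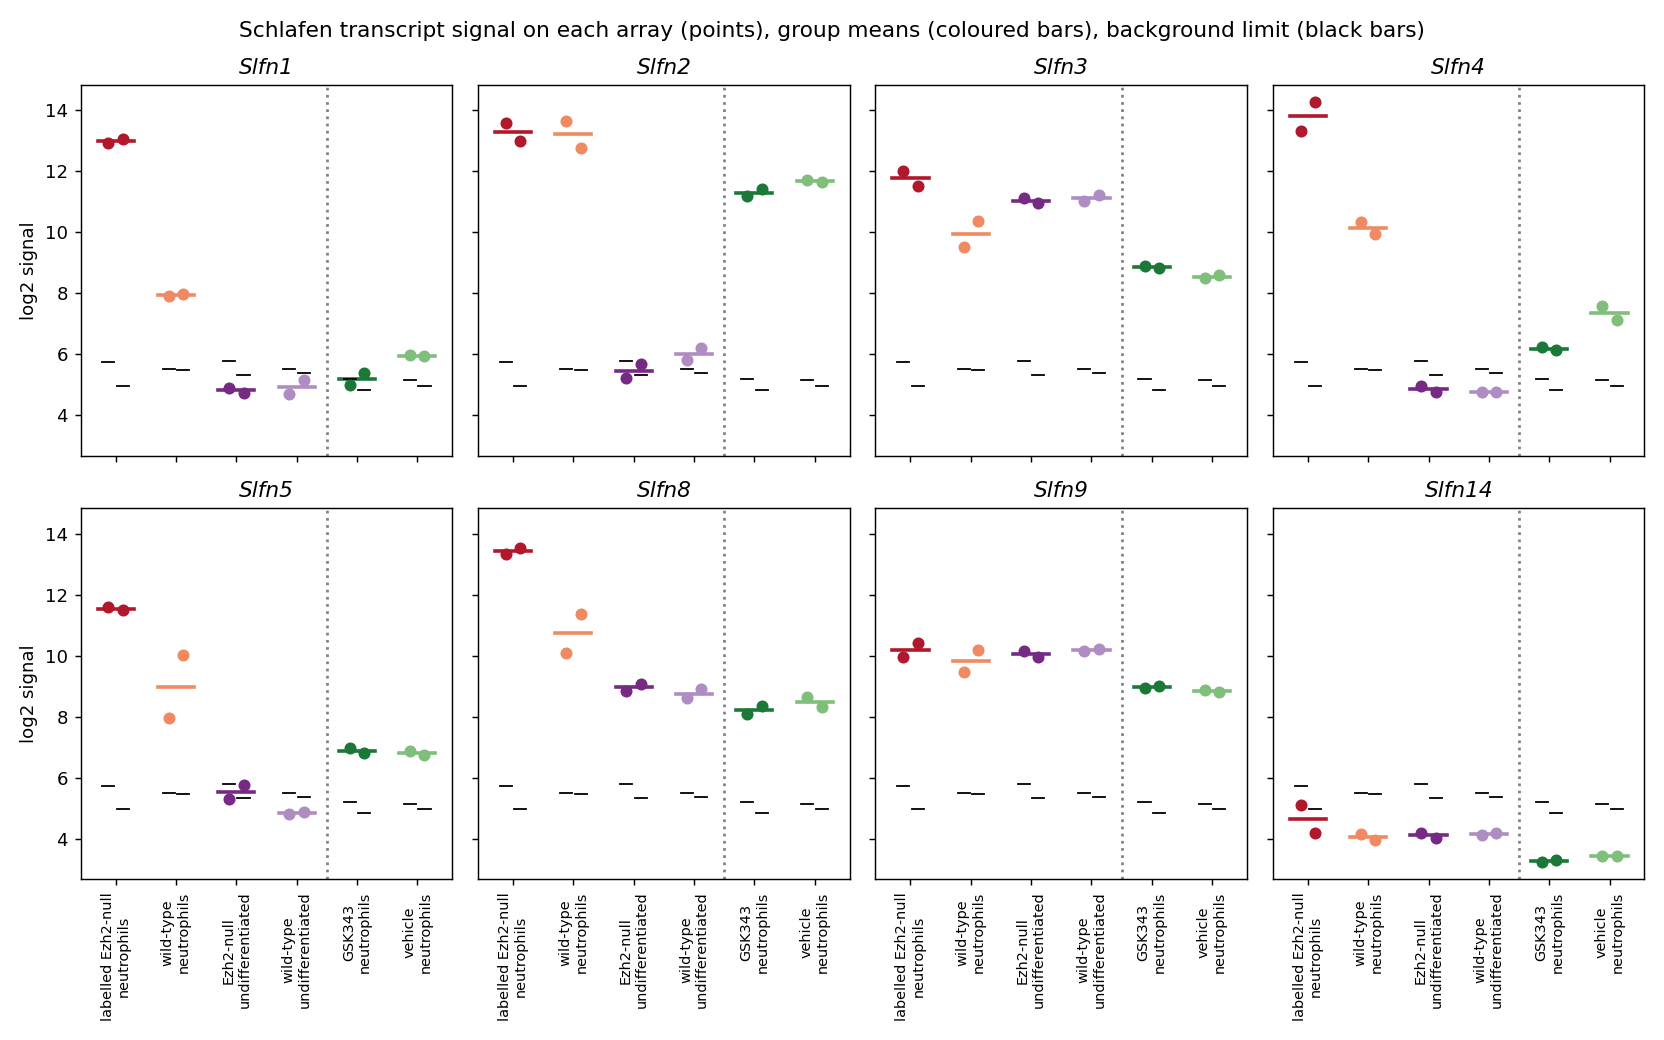
Log2 signal of each Schlafen gene on each of the 12 arrays (points), with group means (coloured bars) and each array's background limit (black bars). The dotted line parts the genotype arrays from the drug arrays. Slfn1 and Slfn4 stand at 12.93 to 14.28 in neutrophils labelled Ezh2-null and at or under the limit in undifferentiated cells, and Slfn9 is nearly level among the genotype arrays.

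Among the short members, Slfn1, whose forced expression has been reported to halt the growth of mouse thymocytes and fibroblasts, gave the largest difference of the 8. It had 12.93 and 13.06 in neutrophils labelled Ezh2-null, against 7.92 and 7.99 in wild-type neutrophils. The groups did not overlap, and the 2 arrays were 0.13 apart in neutrophils labelled Ezh2-null and 0.07 apart in wild type. The difference was 5.05 log2 units, or 33.0-fold (SE 0.18, adjusted p = 6.04e-07). Slfn2, which mouse T cells need to stay quiescent and to survive, had 13.58 and 13.01 in neutrophils labelled Ezh2-null, against 13.66 and 12.76 in wild-type neutrophils. These arrays overlapped, and the difference of 0.08 had a 95% interval of -0.63 to 0.78 (adjusted p = 0.943).

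Both intermediate members were higher. Slfn4, a gene of activated mouse macrophages and myeloid cells, had 13.33 and 14.28 in neutrophils labelled Ezh2-null, against 10.35 and 9.93 in wild-type neutrophils. All labelled-null values lay above both wild-type values, and the difference was 3.67, or 12.7-fold (SE 0.29, adjusted p = 7.44e-05). Slfn3, studied in rodents for intestinal cell differentiation, had 12.02 and 11.52 in neutrophils labelled Ezh2-null, against 9.52 and 10.36 in wild-type neutrophils. The difference was 1.83, or 3.55-fold (SE 0.26, adjusted p = 0.00182). Slfn3 and Slfn4 are close relatives in sequence, as are Slfn8 and Slfn9, and how far their probes hybridise to each other's transcripts was not tested.

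The long members were uneven. Slfn8, a long member found in mice, had 13.33 and 13.54 in neutrophils labelled Ezh2-null, against 10.10 and 11.38 in wild-type neutrophils, a difference of 2.70, or 6.48-fold (SE 0.35, adjusted p = 0.0011). It was 2.06 without wild-type array 1 and 3.33 without wild-type array 2. Slfn5, a nuclear protein whose human counterpart restrains herpesvirus transcription, had 11.58 and 11.50 in neutrophils labelled Ezh2-null, against 7.95 and 10.002 in wild-type neutrophils. Its wild-type arrays were 2.05 apart, and its difference was 2.56, or 5.90-fold (SE 0.51, adjusted p = 0.0102). The Slfn5 call was lost without labelled-null array 1 (adjusted p = 0.0537) or array 2 (adjusted p = 0.0614), and the difference was 1.54 without wild-type array 1 and 3.59 without wild-type array 2. Slfn9 had 9.96 and 10.40 in neutrophils labelled Ezh2-null, against 9.46 and 10.20 in wild-type neutrophils. Its groups overlapped, with a difference of 0.35 (95% interval -0.17 to 0.88, adjusted p = 0.46), although its promoter window resembles that of Slfn8. Slfn14, a ribosome-associated endonuclease first described in rabbit reticulocytes, lay at or under the background limit on every array of all 6 groups, and its highest value was 5.10, on array 1 of the neutrophils labelled Ezh2-null. Its difference was 0.59 (adjusted p = 0.195), and 1.05 without labelled-null array 2, still with no value above the limit.

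In undifferentiated cells no member differed by genotype, where limma called 2.99% of all clusters (1.65% higher and 1.34% lower), and none had an unadjusted p under 0.05 either (0 of 8). Of the 25790 clusters above the limit in at least 1 group, 6.61% were called. The members' median difference was -0.06, against -0.01 over all clusters. Slfn3 had 11.12 and 10.96 in Ezh2-/- cells, against 11.03 and 11.21 in wild type. Slfn9 had 10.16 and 9.95 in Ezh2-/- cells, against 10.16 and 10.21 in wild type. The 95% intervals of these differences were -0.67 to 0.50 for Slfn3 and -0.66 to 0.39 for Slfn9. Slfn8 had 8.84 and 9.08 in Ezh2-/- cells, against 8.60 and 8.91 in wild type, with overlapping arrays. Slfn1 and Slfn4 were at or under the limit on all 4 arrays. Slfn5 had 5.31 and 5.77 in Ezh2-/- cells, of which array 2 was above the limit, against 4.81 and 4.87 in wild type, both under it. Slfn2 had 5.21 and 5.69 in Ezh2-/- cells, with array 2 above the limit, against 5.81 and 6.21 in wild type (difference -0.56, adjusted p = 0.563).

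With GSK343 no member passed the test either, in a comparison where limma called 1 of 65956 clusters (0.00152%). An unadjusted p under 0.05 was reached by 3963 clusters and by 2 of the 8 members, both lower with the drug. Slfn4 had 6.23 and 6.14 with GSK343, against 7.58 and 7.12 with vehicle. The arrays did not overlap, and the difference was -1.16 (95% interval -1.82 to -0.51, adjusted p = 0.415). Slfn1 had 5.00 and 5.39 with GSK343, of which array 1 was under the limit, against 5.98 and 5.93 with vehicle (difference -0.76, 95% interval -1.16 to -0.35, adjusted p = 0.389). For these members the intervals lie on the other side of 0 from the genotype difference in neutrophils.

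The remaining members had unadjusted p above 0.05. Slfn2 had 11.18 and 11.41 with GSK343, against 11.71 and 11.64 with vehicle. Slfn3 had 8.91 and 8.84 with GSK343, against 8.50 and 8.60 with vehicle. In both the arrays did not overlap, in opposite directions, yet the intervals of the differences (-1.08 to 0.33 and -0.26 to 0.91) included 0. The arrays of Slfn9 and of Slfn14, the latter at or under the limit, did not overlap either. The share of all clusters without overlap was not computed, so non-overlap with 2 arrays a group says little for any member. Slfn5 had 6.96 and 6.80 with GSK343, against 6.86 and 6.75 with vehicle. Slfn8 had 8.07 and 8.34 with GSK343, against 8.65 and 8.31 with vehicle, and both these members had overlapping arrays. Slfn9 differed by 0.13 (95% interval -0.40 to 0.65). A p that misses the threshold does not show that drug and vehicle were alike, and with 2 arrays a group the intervals for Slfn5 and Slfn8 reached 1.22 and -1.06.

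**Figure D2:**
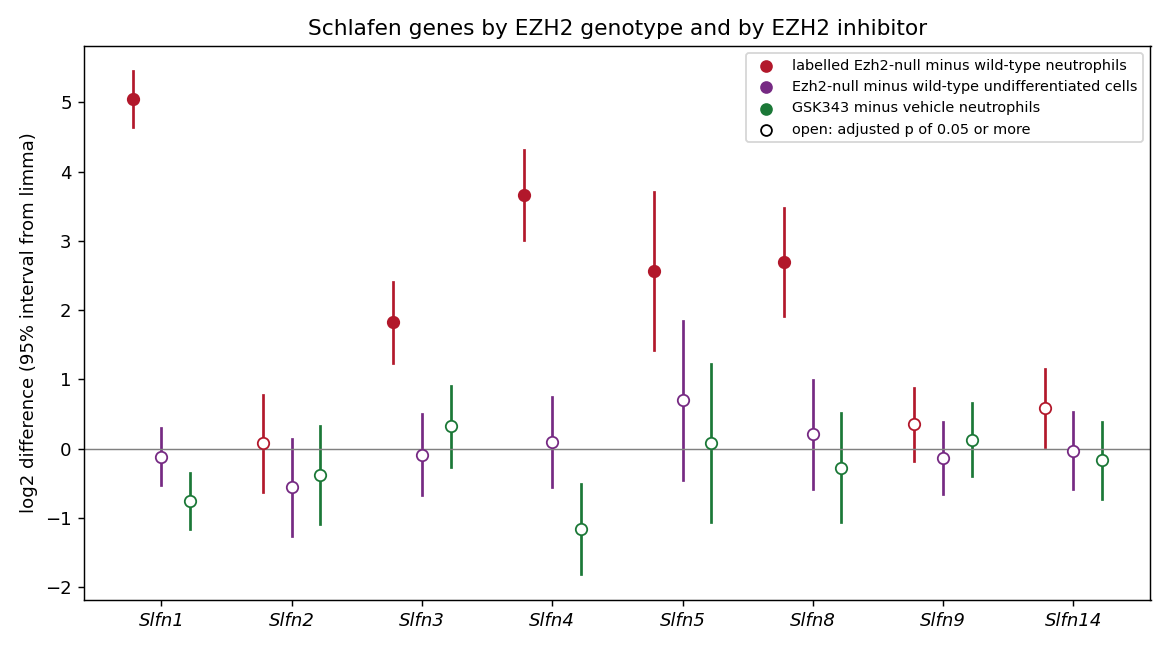
Log2 differences with 95% intervals from limma for each Schlafen gene by genotype in neutrophils (red), by genotype in undifferentiated cells (purple) and by GSK343 in wild-type neutrophils (green); open points did not pass the test. The red points of Slfn1 (5.05) and Slfn4 (3.67) are the highest, and the green points of the same genes (-0.76 and -1.16) are the lowest.

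The differences between these effects were tested directly. For Slfn1 and Slfn4 every undifferentiated array was at or under the background limit, so no genotype difference could be measured there. Their interaction therefore sets the neutrophil difference against background signal. The genotype difference in neutrophils exceeded that in undifferentiated cells for 4 of 8 members, where 4.41% of clusters were called for this interaction, 2.77% in that direction and 1.65% in the other: Slfn1 by 5.16 (SE 0.25, adjusted p = 1.3e-05), Slfn4 by 3.57 (SE 0.41, adjusted p = 0.00168), Slfn3 by 1.91 (adjusted p = 0.0201) and Slfn8 by 2.49 (adjusted p = 0.0233). Of the 25790 clusters above the limit in at least 1 group, 12.4% were called for the interaction. The calls for Slfn3 and Slfn8 were both lost when wild-type undifferentiated array 1 (adjusted p = 0.057 and 0.0603), wild-type undifferentiated array 2 (0.0847 and 0.0957) or labelled-null neutrophil array 1 (0.0602 and 0.0521) was left out, and that for Slfn8 also without labelled-null neutrophil array 2 (adjusted p = 0.0907). The Slfn8 value was 1.85 without wild-type neutrophil array 1 and 3.13 without array 2. For Slfn5 the interaction of 1.86 did not pass (adjusted p = 0.234), and it was 2.89 without wild-type neutrophil array 2 and 0.84 without array 1. Slfn14 was under the limit throughout, and its interaction of 0.62 (adjusted p = 0.485) was 1.08 without labelled-null array 2. Without that array its value was 1.22 for genotype against drug and 0.996 in Ezh2-/- differentiation.

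The genotype difference in neutrophils also exceeded the GSK343 difference for 3 of 8 members, where 3.3% of clusters were called, 1.97% in that direction and 1.33% in the other. These were Slfn1 (5.80, SE 0.25, adjusted p = 5.86e-06), Slfn4 (4.83, SE 0.41, adjusted p = 0.000377) and Slfn8 (2.97, SE 0.49, adjusted p = 0.0122). Of the 25790 clusters above the limit in at least 1 group, 8.8% were called. Slfn8 was no longer called without labelled-null array 2 (adjusted p = 0.0551), GSK343 array 1 (adjusted p = 0.0601) or vehicle array 1 (adjusted p = 0.0617), and its value was 2.33 without wild-type neutrophil array 1 and 3.61 without array 2. For Slfn3 (1.502, adjusted p = 0.0666) and Slfn5 (2.48, adjusted p = 0.123) the effects of genotype and drug were not shown to differ. Without wild-type neutrophil array 2 these values were 1.92 for Slfn3 and 3.51 for Slfn5, and without array 1 they were 1.08 and 1.46. Such fits leave 1 array in a group, whose spread then drops out of the p-value. Genotype and drug were measured on arrays that look separately normalised, so this sets one within-set difference against another.

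Most members also differed between wild-type neutrophils and wild-type undifferentiated cells, a comparison that shares the wild-type neutrophil arrays with the genotype comparison above. Of 8 members 5 rose and 1 fell, where 25.3% of all clusters were called (13.0% higher and 12.2% lower), with a median of 2.50 over the members and 0.03 over all clusters. Of the 25790 clusters above the limit in at least 1 group 60.2% were called, so calls were common in this comparison. Slfn2 changed most, from a group barely above the limit: it had 13.66 and 12.76 in wild-type neutrophils, against 5.81 and 6.21 in wild-type undifferentiated cells, a difference of 7.21, or 148-fold (SE 0.31, adjusted p = 8.12e-07). Slfn4 had 10.35 and 9.93 in wild-type neutrophils, against 4.75 and 4.78 in undifferentiated cells, a rise of at least 25.9-fold (adjusted p = 2.43e-06). "At least" means that the undifferentiated arrays were at or under the background limit and were set to it. On that basis the rise was at least 11.6-fold for Slfn5 (adjusted p = 0.000246) and at least 5.71-fold for Slfn1 (adjusted p = 4.04e-06). Slfn8 rose 3.96-fold (10.10 and 11.38 in wild-type neutrophils, against 8.60 and 8.91 in undifferentiated cells, adjusted p = 0.0022). These folds moved with single wild-type neutrophil arrays: the Slfn5 difference of 4.14 was 5.16 without array 1 and 3.11 without array 2, and the Slfn8 difference of 1.98 was 2.62 without array 1 and 1.35 without array 2. All 4 passed the test.

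Slfn3 went the other way. It had 9.52 and 10.36 in wild-type neutrophils, against 11.03 and 11.21 in wild-type undifferentiated cells, and so fell by 1.18 on the log2 scale (SE 0.26, adjusted p = 0.00786), a call that was lost without undifferentiated array 2 (adjusted p = 0.0577). Slfn9 had 9.46 and 10.20 in wild-type neutrophils, against 10.16 and 10.21 in undifferentiated cells (difference -0.36, adjusted p = 0.348). Without wild-type neutrophil array 2 its difference was -0.73, and without array 1 it was 0.01. Slfn3, Slfn8 and Slfn9 were above the limit on all 4 undifferentiated arrays and Slfn2 on 3 of them.

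In the Ezh2-/- line, neutrophils labelled Ezh2-null were compared with Ezh2-/- undifferentiated cells, again sharing arrays with the comparisons above. The same number of members, 5 of 8, rose, where 22.4% of clusters were called and 11.7% higher, with a median of 5.24 over the members and 0.01 over all clusters. Among the 25790 clusters above the limit the share called was 53.0%. The bound was at least 304-fold for Slfn4 (8.94 log2 units, SE 0.29, adjusted p = 1.99e-07) and at least 174-fold for Slfn1 (8.18 log2 units, SE 0.18, adjusted p = 2.45e-08). Slfn2 rose by 7.84 (SE 0.31), Slfn5 by 6.00 (SE 0.51) and Slfn8 by 4.48 (SE 0.35). Slfn3, which fell in the wild-type line, had 12.02 and 11.52 in neutrophils labelled Ezh2-null, against 11.12 and 10.96 in Ezh2-/- undifferentiated cells (difference 0.73, 95% interval 0.15 to 1.32, adjusted p = 0.0753). Slfn9 differed by 0.13 (adjusted p = 0.793). Within the genotype arrays, the order of group means for Slfn1, Slfn4 and Slfn8 was therefore neutrophils labelled Ezh2-null, then wild-type neutrophils, then the 2 undifferentiated groups, which did not differ beyond their spread. For Slfn2 the 2 neutrophil groups did not differ beyond their spread, and for Slfn9 no neighbours did.

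The 2 wild-type neutrophil arrays differed for Slfn5 (array 2 higher by 2.05), Slfn8 (by 1.28), Slfn3 (by 0.84) and Slfn9 (by 0.74), but Slfn1 differed by 0.07, and array 2 was lower for Slfn4 (-0.42) and Slfn2 (-0.90). The median of 22 interferon-stimulated genes was 6.67 on wild-type array 1 and 8.25 on array 2. Slfn5, Slfn8, Slfn3 and Slfn9 moved between these arrays in the direction of that list, and Slfn1 hardly moved. On the arrays of neutrophils labelled Ezh2-null the same list stood at 9.87 and 10.75, so array 2 was again the higher. There Slfn4 (0.95), Slfn9 (0.44) and Slfn8 (0.21) were higher on array 2, and Slfn2 (-0.57) and Slfn3 (-0.51) were lower on it. Slfn1 (0.13) and Slfn5 (-0.08) hardly moved. Slfn3 and Slfn4 thus went the other way than on the wild-type arrays.

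The genes most like each member were found as those with the smallest root-mean-square difference over the 8 genotype arrays, after centring each gene on its own mean, among 14323 genes above the limit in at least 1 genotype group. Nothing is implied about shared control. For Slfn1 these were Rsad2 (0.55 log2 units), Ifit1 (0.58) and Irf7 (0.58), of which the first 2 encode antiviral proteins and the last a transcription factor that drives interferon production. For Slfn5 they were Ifi27l2a (0.40), Myadm (0.49) and Ifi211 (0.49), and for Slfn8 they were Igf1 (0.29), which encodes a growth factor, Xaf1 (0.30), an interferon-stimulated gene, and Blvrb (0.33), biliverdin reductase B. Background limits several of these likenesses. Slfn1, Ifit1, Ifi27l2a and Igf1 were at or under the limit on all undifferentiated arrays, where Rsad2 had means of 5.43 and 5.46 and Irf7 of 5.26 and 5.47. Slfn8 itself had means of 8.96 and 8.75 there.

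The genes closest to Slfn4 were Lpl, lipoprotein lipase (0.56), Mmp12, macrophage elastase (0.94), and Slfn1 (0.95), another member of the family. Lpl had 13.05 and 14.41 in neutrophils labelled Ezh2-null, against 9.81 and 11.20 in wild-type neutrophils. With GSK343, Lpl (11.85 and 11.56, against 11.32 and 11.25 with vehicle) did not share the lower values of Slfn4, although neither gene passed the test. Slfn2 was nearest to the chemokine gene Ccl6 (0.39), the chemokine receptor gene Ccr1 (0.47) and Klra17 (0.53), all of which rose in wild-type differentiation, Ccr1 by 8.15 log2 units (adjusted p = 4.38e-07). Slfn3 was nearest to Gm9506 (0.24), Fahd1 (0.27) and Tmcc2 (0.28), and Slfn9, nearly level, to Gm6238 (0.12), Aida (0.13) and Rpl37rt (0.13). Gm9506 and Tmcc2 were at or under the limit in wild-type neutrophils (means 4.70 and 4.96), so background limits their likeness to Slfn3. Slfn4, Slfn1 and Mmp12 were at or under it on all undifferentiated arrays, which limits their likeness in the same way.

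Interferon-stimulated genes were set beside the family because interferon induces several Schlafen genes. Of 24 such genes, 22 had a row of their own, and 19 of these rose and none fell in neutrophils labelled Ezh2-null relative to wild-type neutrophils (median 2.50, against 2.19 for the Schlafen members). The largest were Usp18, a brake on interferon receptor signalling, at 5.71 (SE 0.61, adjusted p = 0.00039), Ifit1 at 5.43 (SE 0.43) and Rsad2 at 5.28 (SE 0.54). In wild-type differentiation 13 of 22 rose and none fell (median 1.72), with Oas2 at 4.59 (adjusted p = 0.00341). In undifferentiated cells 1 was higher by genotype, Mx2 (3.80, adjusted p = 0.000322), and 1 lower, Ifih1 (-1.77, adjusted p = 0.0306). With GSK343 limma called 0 of 22. For scale, of the clusters above the limit in at least 1 group, 30.4% were called by genotype in neutrophils and 60.2% in wild-type differentiation. The 13 of 22 lay near the second share, which counts both directions.

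The genes that carry the interferon signal moved less evenly. Of 14 measured signalling genes 2 rose and 5 fell in neutrophils labelled Ezh2-null (median -0.51): Irf7 rose by 4.42 (SE 0.46, adjusted p = 0.000334) and Irf9, part of the complex that binds the response element, by 1.36 (adjusted p = 0.0117), while the receptor gene Ifnar1 fell by 0.99 (adjusted p = 0.0115). In wild-type differentiation 13 of 14 rose (median 1.71), with Ifngr2 at 2.78 and Stat2 at 2.67. With GSK343 limma called 0 of 14. Among clusters above the limit in at least 1 group, 30.4% were called by genotype in neutrophils and 60.2% in wild-type differentiation. Of 8 other genes that restrict foreign RNA or act on transfer and viral RNA, 3 rose and 1 fell in neutrophils labelled Ezh2-null: Apobec3, a cytidine deaminase, rose by 2.06 (adjusted p = 0.000991), the RNA editing gene Adar by 1.08 (adjusted p = 0.00516), and Eif2ak2, the kinase that halts translation on double-stranded RNA, by 0.97 (adjusted p = 0.0348).

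Because some Schlafen proteins have been reported to hold back division, genes of quiescence and of the cell cycle were read as well. Of 10 quiescence-linked genes 2 rose and 2 fell in neutrophils labelled Ezh2-null, among them the antiproliferative gene Btg2 at 2.12 (adjusted p = 0.00101) and Klf2, a quiescence factor of T cells, at -1.68 (adjusted p = 0.00877). Of clusters above the limit in at least 1 group, 30.4% were called in this comparison. Of 10 cell cycle genes 10 rose there (median 2.80), with the replication helicase gene Mcm2 at 3.99 (adjusted p = 6.49e-06). Slfn1, whose forced expression has been reported to halt growth, was higher in the same samples. Whether the same cells hold both was not tested. In wild-type differentiation, where 60.2% of clusters above the limit were called, those 10 fell (median -3.67) while Slfn1, Slfn2, Slfn4, Slfn5 and Slfn8 rose.

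**Figure D3:**
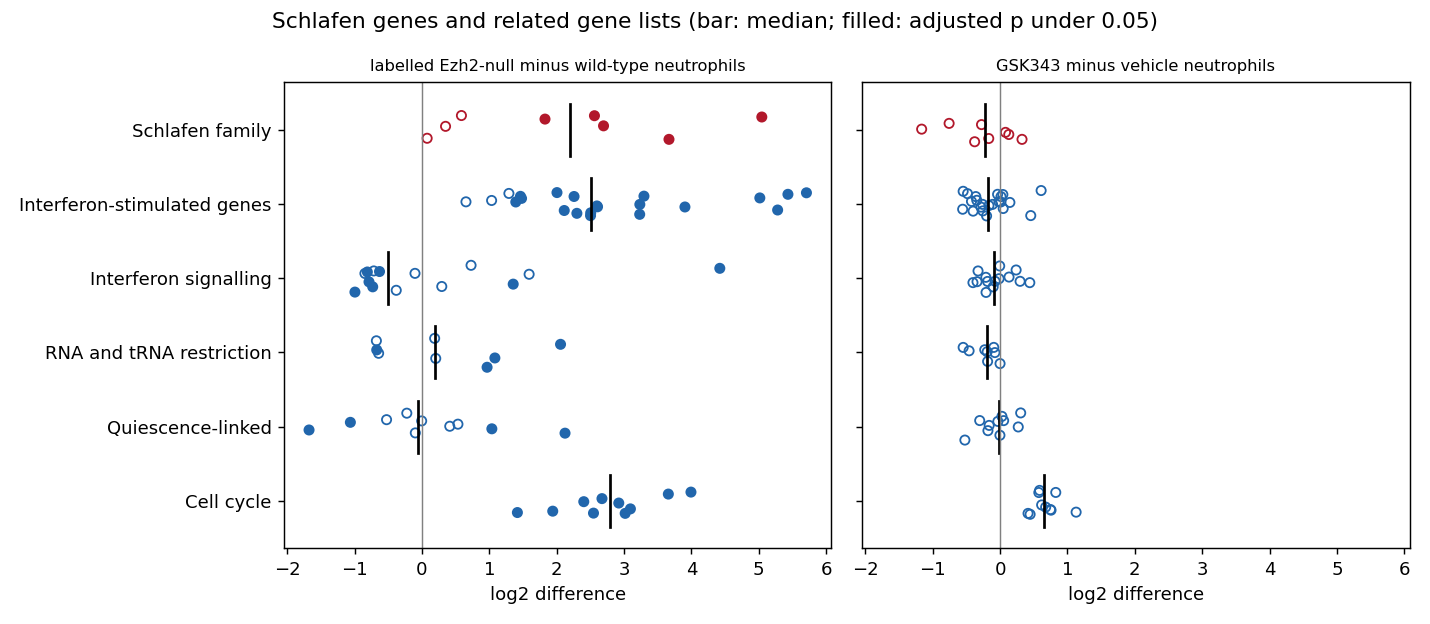
Log2 differences of single genes in the Schlafen family (red) and in related gene lists (blue), by genotype in neutrophils (left) and by GSK343 (right), with the list median as a bar and filled points for genes that passed the test. On the left, 5 of 8 Schlafen genes and 19 of 22 interferon-stimulated genes are filled and above 0, and on the right no point is filled.

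Markers of other cell types moved with the genotype in neutrophils. Of clusters above the limit in at least 1 group, 30.4% were called there and 60.2% in wild-type differentiation. All 8 mast cell and basophil markers were higher in neutrophils labelled Ezh2-null, with a log2 summed signal of 19.38 to 19.42, against 12.06 to 13.63 in wild-type neutrophils, and Tpsb2 was at least 1987-fold higher. All 7 erythroid markers were higher too (17.39 to 17.62, against 7.84 to 7.86). Of 6 promyelocyte and progenitor markers 3 were higher and none lower (summed signal 12.84 to 13.58, against 9.96 to 10.36), namely Kit (5.35), Mpo (3.48) and Cd34 (2.25). The mast cell and basophil sum was also high in undifferentiated cells, 18.80 to 18.90 in wild type and 18.00 to 18.33 in Ezh2-/-. Tpsb2, Cma1 and Fcer1a were not above the limit on both arrays of either group there. The erythroid sum was 15.51 to 15.58 and 15.28 to 15.71 in those groups, where only Car2 was above the limit on both arrays. Macrophage markers had a summed signal of 15.30 to 15.75 in neutrophils labelled Ezh2-null, against 16.46 to 17.61 in wild-type neutrophils, with 4 of 9 lower, such as Mertk (-2.88), and none higher. Neutrophil markers had 4 of 10 lower, such as Camp (-4.74). The part of these cell types in the Schlafen differences was not tested, and fewer cells of a type cannot be told apart from less RNA per cell in these bulk samples. T and NK cell markers (0 of 7) were not above the limit on both arrays of either neutrophil group, and of the plasmacytoid dendritic cell markers Siglech and Ccr9 were not. Macrophage markers were also higher in wild-type neutrophils than in wild-type undifferentiated cells (8 of 9, summed signal 16.46 to 17.61, against 10.51 to 10.58), the comparison in which Slfn4 rose, and their part in it was not tested.

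The genes around the cluster were read as well. Of the 12 protein-coding genes next to it, 6 at each end, 11 had a row of their own, but 5 of these (Fndc8, Unc45b, Rasl10b, Gas2l2 and Mmp28) were not above the limit in any genotype group and could hardly show a change. In neutrophils labelled Ezh2-null 1 of the 11 was higher and 2 lower than in wild-type neutrophils: Nle1 by 0.49 (adjusted p = 0.0184), Ap2b1 by -0.48 (adjusted p = 0.0451) and 1700020L24Rik by -1.87 (adjusted p = 0.00174). Of all clusters 11.8% were called in this comparison, and of those above the limit in at least 1 group 30.4%. In wild-type differentiation Rffl rose by 1.16, and Lig3, a DNA ligase gene, and Nle1 fell by 2.44 and 1.95. Within the cluster, uncalled members lay among called ones by genotype: Slfn9 lies between Slfn5 and Slfn8, and Slfn2 between Slfn8 and Slfn1, while Slfn1, Slfn4 and Slfn3 were called and are neighbours.

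**Figure D4:**
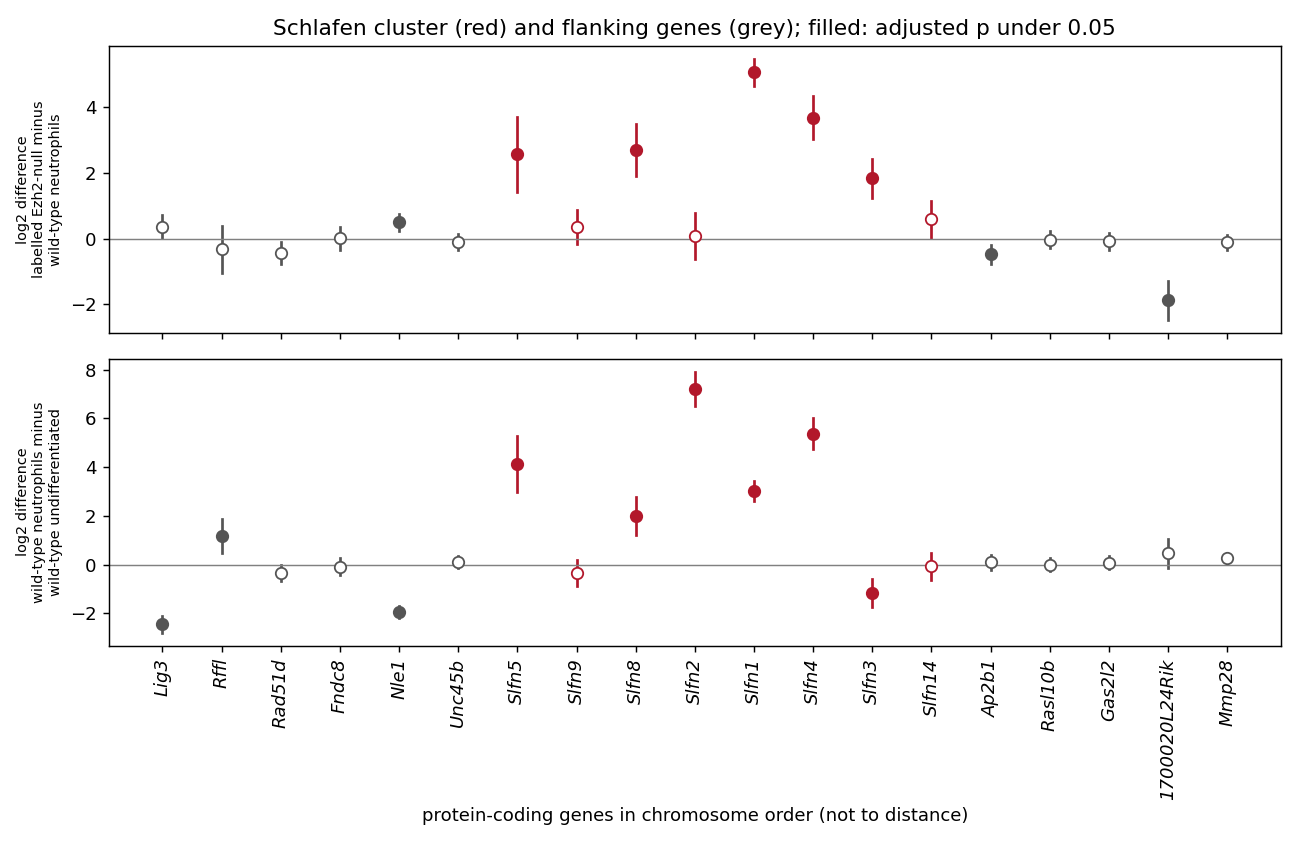
Log2 differences with 95% intervals from limma for the Schlafen genes (red) and their flanking protein-coding genes (grey) in chromosome order, by genotype in neutrophils (top) and in wild-type differentiation (bottom); open points did not pass the test. In the top panel Slfn1 (5.05) is the highest, and the flanking genes lie between -1.87 and 0.49.

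A family relative outside the 8 lies between Slfn8 and Slfn2. Slfn10-ps, annotated as a pseudogene, had 10.32 and 10.46 in neutrophils labelled Ezh2-null, against 7.50 and 7.93 in wild-type neutrophils (a gap of 2.67 with SE 0.20, adjusted p = 6.04e-05). Its difference lay close to that of Slfn8 (2.70), but it did not rise in wild-type differentiation (-0.40, adjusted p = 0.218), whereas Slfn8 did. Its probes could also pick up transcripts of its close relatives, which was not tested. Slfn5os, the antisense neighbour of Slfn5, was at or under the limit on all 12 arrays. The Schlafen-like gene Slfnl1 was above the limit on at most 1 array of any group and was not called in any of these comparisons.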

How the data were processed

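Per the labels' protocols, 250 ng of total RNA from each of 12 samples went onto 1 Affymetrix Mouse Transcriptome Array 1.0. The authors deposited log2 signals, as the range of the values shows, and Transcriptome Analysis Console and Expression Console, both from Affymetrix, are named in the submitters' processing notes. How probes were summarised and corrected, and the build, is not given in the sources used here. Of 72688 entries, 6732 control probe sets were left out, and 31216 of the 65956 clusters carried 1 gene symbol after an update by Entrez ID through RefSeq (GRCm38.p6).

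Group means of all 12 arrays were fitted with limma 3.58.1 in R 4.3.3 (residual degrees of freedom 6, prior 3.06). Intervals are at 95%. The test was checked on simulated data. The number of arrays limits the precision. Members, lists and tests were chosen with earlier results of these data known. Named genes were the members, up to 3 called genes of largest change per list, the 3 most alike genes per member, the 6 flanking genes at each end, and Ezh2. Relatives by name (Slfn10-ps, Slfn5os and Slfnl1) were added after their values were seen. Alternatives were other normalisations, filters, fits and arrays left out. Windows were aligned with Biopython 1.88.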

Additional observations from a re-analysis of the deposited data

Results flagged for a closer look

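Differences between effects, each tested as such, set 4 members apart by stage and 3 by genotype against drug. Of clusters above the limit in at least 1 group, 12.4% and 8.8% were called in these tests. The genotype difference in neutrophils minus that in undifferentiated cells was 5.16 for Slfn1, 3.57 for Slfn4, 2.49 for Slfn8 and 1.91 for Slfn3 on the log2 scale. Slfn1 and Slfn4 were at or under the background limit on every undifferentiated array, so their genotype difference at that stage could not be measured. The genotype difference in neutrophils minus the GSK343 difference was 5.80 for Slfn1, 4.83 for Slfn4 and 2.97 for Slfn8. For Slfn1 and Slfn4 these calls held under every alternative run, with adjusted p up to 0.000535 and 0.0149 for the stage difference and up to 0.000134 and 0.00415 for the drug difference.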

How the results depend on the processing

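Of the 7 counts of called members, those by genotype in undifferentiated cells and by GSK343 stayed at 0 under all 12 alternatives each. By genotype in neutrophils 4 or 5 members were called. Leaving out 1 array gave 4 to 5 calls by genotype in neutrophils, 5 to 7 in wild-type differentiation, 5 to 6 in Ezh2-/- differentiation, 2 to 5 for the stage interaction and 2 to 5 for genotype against drug. The stage interaction gave 2 calls when the 8 genotype arrays alone were fitted, which for this contrast are also the only arrays compared. Fewer residual degrees of freedom are part of that alternative. Leaving out 1 array leaves 1 in its group, whose spread then no longer enters the p-value. A call gained that way adds no support. With only the 4 neutrophil arrays of the genotype comparison Slfn5 was not called (adjusted p = 0.0913). Over single members, 691 alternatives kept call and direction or stayed uncalled, 12 gained and 18 lost a call, and none turned a call round. Quantile normalisation, median centring and the intensity trend changed no member count. The replicate block changed no member count either (5 by genotype in neutrophils, 0 by GSK343, 6 in wild-type differentiation, 5 in Ezh2-/- differentiation, 4 and 3 for the differences between effects). Array differences, taken over all clusters by the labels' replicate numbers, correlated between groups at -0.25 to 0.19. The highest value was between wild-type neutrophils and neutrophils labelled Ezh2-null. Most clusters were under background, so these values cannot settle whether the replicate numbers pair the samples. With clusters under the limit left out, 7 members were tested and Slfn3 was also called in Ezh2-/- differentiation (adjusted p = 0.046) and for genotype against drug (adjusted p = 0.0414). With 1-symbol clusters alone it was called for genotype against drug (adjusted p = 0.0453). Using the dimmer row of a member was not possible, since each had 1 row. With the median of 5222 negative control probe sets as the limit, the bounds of wild-type differentiation fell to 17.1-fold for Slfn4, 7.67-fold for Slfn5 and 3.77-fold for Slfn1. Those of Ezh2-/- differentiation fell to 275-fold for Slfn4 and 157-fold for Slfn1. With that limit the Ezh2-/- rises of Slfn2 and Slfn5 also became bounds, of at least 192-fold and at least 57.0-fold. For all clusters, counts by genotype in neutrophils lay between 4023 and 7861, against 7791. The 4023 came without labelled-null array 2.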
